A study of Homo sapiens with 59 samples.

Results

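The sites examined here are the distal binding sites of SUZ12 in NCI-H661 cells, an established line from a human large cell carcinoma of the lung. They are the deposited SUZ12 peaks of cells kept in DMSO that lie on an autosome and more than 5000 bp from the canonical start of every protein-coding gene (hg38, GENCODE v44). Of 24571 deposited peaks, 24381 were autosomal, and 20813 of these were distal. The remaining 3568 autosomal peaks lie within that distance of a start and are called proximal sites. SUZ12 was profiled in 1 library, so the sites were chosen by their SUZ12 signal in that library, and SUZ12 values are given as a description with no test.

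SUZ12 is a core subunit of Polycomb repressive complex 2 (PRC2), which methylates lysine 27 of histone H3 and so writes H3K27me3, a mark of silenced developmental genes. Polycomb repressive complex 1 places ubiquitin on histone H2A (H2AK119ub), and these marks often lie together. In mammals PRC2 is known to gather at CpG islands, which lie mostly at gene starts, and to spread H3K27me3 from there over broad domains. H3K27ac, laid down by p300 and CBP, marks active promoters and enhancers, and H3K4me3 marks active and poised promoters.

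The marks were followed at these sites in 2 experiments, both ChIP-Rx-seq with mouse chromatin added as a spike-in, whose reads were not used here. Parental cells were kept for 1 day in DMSO or in 10 µM A-485, which inhibits p300 and CBP, and H3K27me3 (replicates 2, 3 and 4), H2AK119ub (replicates 3 and 4) and H3K27ac (replicates 2 and 4) were profiled. Bulk sorted NCI-H661 populations with tetracycline-inducible hairpins to DPPA2 (shDPPA2), DPPA4 (shDPPA4) or the pair (shDPPA2+4) were cultured for 7 days with 2 µg/ml doxycycline (DOX) or with water alone (H2O). In these, replicates 1 and 2 were profiled for H3K4me3, and replicates 1 and 3 for H3K27me3 and for H2AK119ub. DPPA2 and DPPA4 are chromatin proteins of the early embryo. The labels give replicate numbers only, although the study calls its replicates biological, so a p-value reflects the spread of these samples, which may be partly technical. SUZ12 after A-485 or in the knockdown lines, H3K4me3 in parental cells and H3K27ac in the knockdown lines were not analysed here, and the files used hold no RNA that would check the knockdown.

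Several libraries stood apart. A library is called shallow here when it held few reads in peaks, since total reads were not compared. H3K27me3 DMSO replicate 4 held 498618 reads in peaks against 12005354 and 9908533 in replicates 2 and 3, and H2AK119ub DMSO replicate 3 held 2133807 against 390762 in replicate 4. In the knockdown lines the reads in peaks ran from 1085365 to 10545826 for H3K27me3, from 1330926 to 4136521 for H2AK119ub and from 8394879 to 19379794 for H3K4me3. At peaks with the same borders as a SUZ12 site, the input counts equalled those of the SUZ12 list in every shared peak of the DMSO lists of H3K27me3 and H2AK119ub and of H3K27ac DMSO replicate 2. The sites and these marks therefore share an input library. Of the H3K27ac replicate 4 libraries, A-485 carried the DMSO input counts (2 of 2 shared peaks) and DMSO did not (5 of 36), so the inputs of these lists go against their labels.

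Distal sites were short and mostly weak. Their width ran from 100 to 12600 bp with a median of 1200 bp (1600 bp for proximal sites). They held 379264 of the 535325 SUZ12 reads in peaks, with 7 to 1467 reads a site and a median of 13, against a median of 23 at proximal sites. The log2 fold of SUZ12 over input, as deposited, had a median of 2.20 at distal and 2.93 at proximal sites. Only 719 distal sites held 50 or more reads, whereas 3678 held 7 to 10. The distance to the nearest canonical start had a median of 102524 bp. Just inside the limit lay sites at 5009 bp from DHRS7C, 5015 bp from SIM2 and 5017 bp from CACNG5, with 22, 26 and 11 reads, and just outside it lay peaks at 4995 bp from PTPRT, 4971 bp from C1orf53 and 4970 bp from PLXNA4, with 19, 26 and 10 reads.

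The sequences of 5 sites are shown because they set the unusual, CpG-dense sites apart from sites near IRX4 and FOXA1 with fewer CpGs. Each is the central 300 bp of a site, read from the hg38 plus strand from 5′ to 3′, with every CpG in capitals. The RPIA, TP53TG3D and ANKRD30BL sites, named by their nearest protein-coding start, had the highest SUZ12 fold over input among sites with at least 50 reads in their chromatin class (the classes are defined with the results). The IRX4 and FOXA1 sites were added after their values were seen.
RPIA chr2:90360451-90360750: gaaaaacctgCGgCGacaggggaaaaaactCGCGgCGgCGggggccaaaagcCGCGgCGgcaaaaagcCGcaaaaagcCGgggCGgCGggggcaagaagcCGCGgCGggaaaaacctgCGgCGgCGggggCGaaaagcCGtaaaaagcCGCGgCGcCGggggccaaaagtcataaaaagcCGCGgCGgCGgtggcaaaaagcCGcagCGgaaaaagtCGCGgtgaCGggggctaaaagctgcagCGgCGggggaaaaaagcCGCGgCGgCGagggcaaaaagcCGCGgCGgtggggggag
TP53TG3D chr16:32085301-32085600: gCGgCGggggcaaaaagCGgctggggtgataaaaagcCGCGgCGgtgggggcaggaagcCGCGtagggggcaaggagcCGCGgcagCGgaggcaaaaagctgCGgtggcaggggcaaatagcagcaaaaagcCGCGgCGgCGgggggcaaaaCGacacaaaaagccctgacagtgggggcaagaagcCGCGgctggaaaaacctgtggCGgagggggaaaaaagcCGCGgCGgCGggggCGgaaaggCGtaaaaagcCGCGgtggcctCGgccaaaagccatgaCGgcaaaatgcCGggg
ANKRD30BL chr2:132038001-132038300: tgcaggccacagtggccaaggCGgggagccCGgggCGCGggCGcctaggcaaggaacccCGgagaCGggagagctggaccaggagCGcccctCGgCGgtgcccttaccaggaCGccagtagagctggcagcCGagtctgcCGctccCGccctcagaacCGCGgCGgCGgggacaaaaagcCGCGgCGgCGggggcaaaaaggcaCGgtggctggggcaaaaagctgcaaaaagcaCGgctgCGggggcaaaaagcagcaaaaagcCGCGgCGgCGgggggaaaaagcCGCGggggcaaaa
IRX4 chr5:2004251-2004550: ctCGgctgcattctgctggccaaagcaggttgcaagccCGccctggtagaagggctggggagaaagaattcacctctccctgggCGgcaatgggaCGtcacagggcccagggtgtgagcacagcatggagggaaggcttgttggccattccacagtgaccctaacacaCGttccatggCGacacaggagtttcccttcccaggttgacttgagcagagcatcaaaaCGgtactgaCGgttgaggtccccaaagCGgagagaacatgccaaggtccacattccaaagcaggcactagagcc
FOXA1 chr14:37584601-37584900: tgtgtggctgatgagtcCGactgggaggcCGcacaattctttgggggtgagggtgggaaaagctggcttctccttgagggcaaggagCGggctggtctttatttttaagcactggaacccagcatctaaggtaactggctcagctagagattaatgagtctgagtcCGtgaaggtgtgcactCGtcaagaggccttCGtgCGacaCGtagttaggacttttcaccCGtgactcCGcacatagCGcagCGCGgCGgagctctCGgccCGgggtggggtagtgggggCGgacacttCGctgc

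The windows of the RPIA, TP53TG3D and ANKRD30BL sites held 43, 31 and 31 CpGs in 300 bp, and the IRX4 and FOXA1 windows held 9 and 18. The whole RPIA site (chr2:90360101-90361100) held 108 SUZ12 reads against 3 input reads, and lies 69 bp from a processed pseudogene in intergenic sequence. The TP53TG3D site (chr16:32084701-32086200) held 109 reads against 4 and covers a transcribed processed pseudogene. The ANKRD30BL site (chr2:132037201-132039100) held 132 reads against 9, again at a processed pseudogene. The IRX4 site (chr5:1998101-2010700), the widest distal site, held 402 reads against 144 in an intron of a noncoding gene, 115176 bp from the start of IRX4, a homeobox transcription factor. The FOXA1 site (chr14:37583401-37586100) held 39 reads against 9 between genes, 9149 bp from the start of FOXA1, a pioneer factor of lung and other endoderm.

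A repeated unit stood out in the printed sequences. Its core, AAAAAGCCGCGGCGG, is the most frequent run of its length in the windows of highest fold, was chosen after these had been seen, and was then searched on both strands of whole sites. It was found in 41 distal sites (0.197%) on 10 chromosomes, in 0 of 3568 proximal sites and in 142 of 2139693 distal tiles of 1200 bp (0.00664%), a background of all autosomal windows as far from starts as the sites. Sites with the unit held a median of 5 copies and up to 20. Their median was 35 SUZ12 reads (8 to 538) with a log2 fold of 5.07, against 2.20 at the other distal sites, and they made up 9 of the 20 sites of highest fold among those with at least 50 reads. The RPIA, TP53TG3D and ANKRD30BL sites, chosen for high fold and the source of the unit, are among them. The contrast in fold was thus partly set by this choice and is a description only. Reads from near-identical copies cannot be assigned to 1 copy, so the values of these sites are uncertain. Only 10 of the 41 carried H3K27me3 without H3K27ac by the class rule and 29 carried neither mark, while H3K4me3 marked 61.0 to 78.0% of them in the 6 H2O libraries and 70.7 to 85.4% in the 6 DOX libraries.

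Most distal sites were poor in CpG. The ratio of observed to expected CpG had a median of 0.257 at distal sites, 0.648 at proximal sites and 0.188 in distal tiles, and the GC content had medians of 46.7, 57.0 and 39.6%. A site was called CpG-rich when the ratio passed 0.6 and the GC content 50%. This held for 728 distal sites (3.50%), for 55.8% of proximal sites and for 0.336% of tiles. Among distal sites with 50 or more SUZ12 reads the share was 19.6%, so the strong sites were the more CpG-dense ones, though still far below the proximal share.

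Motif matches were counted in the central 300 bp on both strands as a description. CGCGCG was found in 1.35% of distal sites, 20.9% of proximal sites and 0.163% of tiles. The AP-1 motif TGANTCA was found in 8.93% of distal sites and 9.24% of tiles, and the GA repeat GAGAGAGA in 4.09% and 3.48%. The CTCF core motif was found in 1.17% of distal sites, 0.721% of tiles and 1.99% of proximal sites. The share with AP-1 and GA matches was thus close to that of all distal sequence, and CGCGCG had the largest ratio of shares between sites and tiles.

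By annotation, distal sites resembled the distal genome at large. Of the sites, 39.5% were intergenic (38.3% of tiles), 32.0% lay in introns and 9.35% in exons of protein-coding genes (34.9 and 9.15% of tiles), and 6.71% lay in exons of noncoding genes (3.61% of tiles). Another annotated start, of a noncoding gene, a pseudogene or a minor transcript of a protein-coding gene, lay within 1000 bp of 2387 sites (11.5%, against 8.32% of tiles). Of these starts, 964 were of long noncoding RNAs, 833 were other starts of protein-coding genes and 270 were of processed pseudogenes. The share rose to 30.7% among sites with 50 or more reads.

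Distal sites came in runs. Joined across gaps of up to 10000 bp, they formed 9989 clusters, and 14328 sites (68.8%) lay in clusters of at least 2. The largest by number lay near DNAJB6, a heat-shock co-chaperone, at chr7:157500301-157877800, with 84 sites and 4516 SUZ12 reads over 377500 bp. Clusters of 69 sites near ZNF536, a zinc finger repressor gene (chr19:30378201-30597600), of 54 near C20orf85 (chr20:57860201-58055500) and of 53 near IRX4 (chr5:1889601-2078600) followed, and all of their sites carried H3K27me3 without H3K27ac. A cluster of 53 sites near SSPN (chr12:26200901-26411000) did so at 79.2% of its sites, with a median of 15.7 input reads per kb, against 6.15 over all distal sites. This median was 12.5, 7.97 and 10.8 in the ZNF536, C20orf85 and IRX4 clusters above and 6.0 in the DNAJB6 cluster, so raised input was not particular to SSPN.

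The density of sites was uneven across chromosomes. It ran from 1.49 sites per Mb on chromosome 9 to 16.8 on chromosome 19 and 15.8 on chromosome 20. The input density of a chromosome was taken as the median input reads per kb of the deposited peaks of H3K27me3 DMSO replicate 2. Across the 22 autosomes site density rose with it (Pearson's r 0.664, Spearman's rho 0.673, n = 22), a description over chromosomes that share 1 library. A stretch of chromosome 14, from 35000001 to 37000000, was chosen after its values were seen. It held 166 sites with a median of 19.5 input reads per kb, 108 of them with a log2 fold of SUZ12 of at most 1, and 11 of the 166 (6.63%) carried H3K27me3 without H3K27ac, against 496 of 784 (63.3%) on the rest of the chromosome. The site nearest NKX2-1, the lineage factor of lung epithelium, lies there (chr14:36488001-36491400), with 51 SUZ12 reads against 64 input reads.

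Input itself was high at a few sites. The 5 sites with the most SUZ12 reads among those with neither mark all lay near the centromere of chromosome 16 with 382 to 654 input reads per kb, and the strongest, 229879 bp from SHCBP1 (chr16:46388501-46391500), held 1467 SUZ12 against 1961 input reads and was marked in no library of any target. Over 50 input reads per kb were found at 23 distal sites. In the 626 sites with more than 15 input reads per kb the median log2 fold was 0.91 and 39.0% carried H3K27me3 without H3K27ac, against 2.95 and 84.3% in the 7772 sites with at most 5. What part input density has in these shares was not tested.

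Genes of developmental transcription factors were frequent among the starts nearest to distal sites. Of 190 such genes, 132 (69.5%) were the nearest canonical start to at least 1 distal site, whereas 3443 of all 19103 autosomal protein-coding genes were (18.0%), and 99 of the 190 had a site with 20 or more reads (7.01% of all genes). Genes in long intergenic stretches are the nearest start over more sequence, which these shares do not correct for. Neuroendocrine genes followed with 10 of 18 (55.6%), then Wnt ligands, receptors and antagonists with 18 of 56 (32.1%), mesenchymal genes with 8 of 25 (32.0%), axon guidance genes with 18 of 69 (26.1%), lung epithelial genes with 7 of 30 (23.3%), HOX cluster genes with 7 of 39 (17.9%) and Polycomb complex genes with 4 of 34 (11.8%). HOX genes had proximal sites more often (17 of 39).

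Single sites near these genes carried different marks. The IRX4 site was marked by H3K27me3 in 3 of 3 DMSO, 6 of 6 H2O and 6 of 6 DOX libraries, and by H3K4me3 in 0 of 12. In those libraries its H3K27me3 peaks had log2 folds over input of 2.51, 2.90 and 1.38 (DMSO replicates 2, 3 and 4), of 2.10 to 4.08 with a median of 2.51 with H2O, and of 1.87 to 2.91 with a median of 2.49 with DOX, so the ranges overlapped. A site 8968 bp from HOXD1 (chr2:176177701-176179700), at the start of the noncoding HAGLROS, held 37 SUZ12 reads and was marked by H3K4me3 in 12 of 12 libraries and by H3K27me3 in 2 of 3 DMSO libraries. A site inside HOXA3, nearest to HOXA2 (chr7:27112701-27114600), held 49 reads, carried H3K27ac in both DMSO libraries and H3K4me3 in 12 of 12, and carried H3K27me3 in 0 of 12 knockdown-line libraries.

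Sites near signalling, neuroendocrine and lung epithelial genes spanned the same range. Sites near FZD10, a Wnt receptor (chr12:130131601-130134600, 53 reads), and in an intron of PLXNA4, a semaphorin receptor (chr7:132433901-132437900, 70 reads), carried H3K27me3 and no H3K4me3 in any of 12 libraries. The site nearest UCHL1, a neuroendocrine marker (chr4:41360201-41361700, in an exon of LIMCH1), held 44 reads against 3 input reads and was marked by H3K4me3 in 12 of 12 and by H3K27me3 in 10 of 12 knockdown-line libraries. The FOXA1 site was marked by H3K27me3 in 1 of 3 DMSO and 6 of 12 knockdown-line libraries and by H3K4me3 in 12 of 12.

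H3K27me3 covered most distal sites. A site was called marked in a library when at least 50% of its length lay under peaks of the mark with a log2 fold over input above 1 and an FDR under 0.05. H3K27me3 marked 82.1% of distal sites in DMSO replicate 2, 85.1% in replicate 3 and 12.7% in the shallow replicate 4, whereas it marked 9.49, 11.1 and 0.755% of distal tiles. With H2O it marked 23.7 to 75.2% of sites (median 48.2%, 6 libraries) and with DOX 66.9 to 85.0% (median 75.2%), against 1.45 to 9.66% (median 4.91%) and 7.61 to 12.4% (median 9.69%) of tiles. The median of tiles was 9.49% over DMSO and 6.49% over A-485 libraries, and in every library the share of sites was above that of tiles.

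The other marks differed more in their distance from this background. H2AK119ub marked 4.97 to 34.7% of distal sites in DMSO libraries (tiles, median 1.38%), 7.33 to 27.5% with A-485 (1.1%), 6.34 to 19.3% with H2O (1.27%) and 6.18 to 44.4% with DOX (2.61%). H3K4me3 marked 3.08 to 3.66% with H2O (1.04%) and 3.37 to 4.35% with DOX (1.1%). H3K27ac marked 0.543 and 6.66% of distal sites in DMSO replicates 2 and 4 (tiles 0.906 and 4.36%, median 2.63%) and 0.317 and 0.480% with A-485 (tiles 0.303 and 0.507%, median 0.405%), so the share of sites was above that of tiles in 2 of 4 libraries and below it in 2. ChIP of a cell population cannot tell apart a mark on fewer cells and less of it in each.

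**Figure D1:**
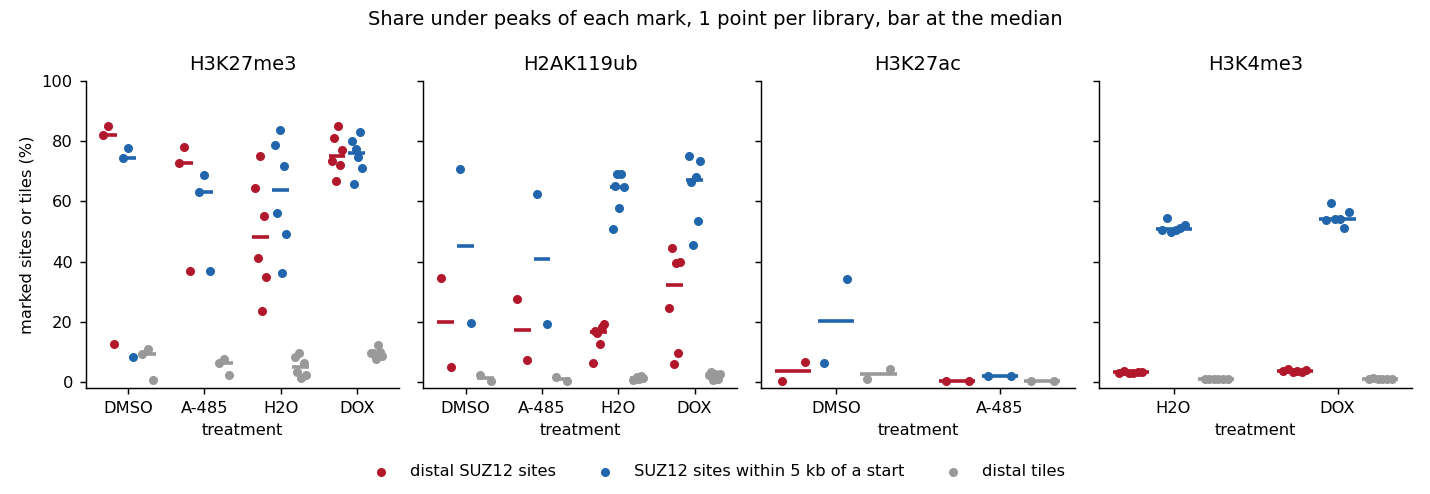
Share of distal SUZ12 sites (red), SUZ12 sites within 5 kb of a start (blue) and distal tiles (grey) under peaks of each mark in percent, by treatment; each point is a library and the bar is the median. Red and blue points overlap for H3K27me3, whereas for H3K4me3 the red points sit between 3.08 and 4.35% and the blue points between 49.9 and 59.4%.

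Distal and proximal sites differed by mark. For H3K27me3 the distal share exceeded the proximal one in 3 of 3 DMSO libraries, by 4.20 to 7.56 percentage points, and in the 3 DOX libraries of replicate 3, by 5.84 to 15.2 points. The distal share minus the proximal one was -16.6 to -8.61 points in 6 of 6 H2O libraries and -10.9 to -6.60 points in the 3 DOX libraries of replicate 1, so the order turned with the library. H2AK119ub marked fewer distal than proximal sites in 16 of 16 libraries, for example 16.7% against 64.9% in the median over H2O libraries. H3K4me3 did so in 12 of 12 libraries, with 3.08 to 3.66% of distal sites (median 3.24%) and 49.9 to 54.7% of proximal sites in H2O libraries, and H3K27ac in 4 of 4.

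Recurrence differed as strongly between marks. Of the 20813 sites, 15747 (75.7%) carried H3K27me3 in at least 50% of its 18 libraries, 788 (3.79%) in all 18 and 1336 (6.42%) in none. H2AK119ub was found in none of its 16 libraries at 5750 sites (27.6%) and in all at 92. H3K27ac was found in none of its 4 libraries at 19291 sites (92.7%), and H3K4me3 in none of its 12 at 19789 (95.1%) and in all 12 at 512 (2.46%).

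Around the sites, marking peaked at the centre. In the median over DMSO libraries H3K27me3 peaks covered 79.6% of site centres and still 54.1% of positions 10 kb upstream on the plus strand and 54.2% at 10 kb on the other side. In H2O libraries H2AK119ub fell from 17.0% at the centre to 8.68% at the upstream position. H3K4me3 was narrow, with 3.70% at the centre and 0.774% at 2 kb upstream in H2O libraries. At sites with 50 or more SUZ12 reads its central coverage was 24.4%.

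**Figure D2:**
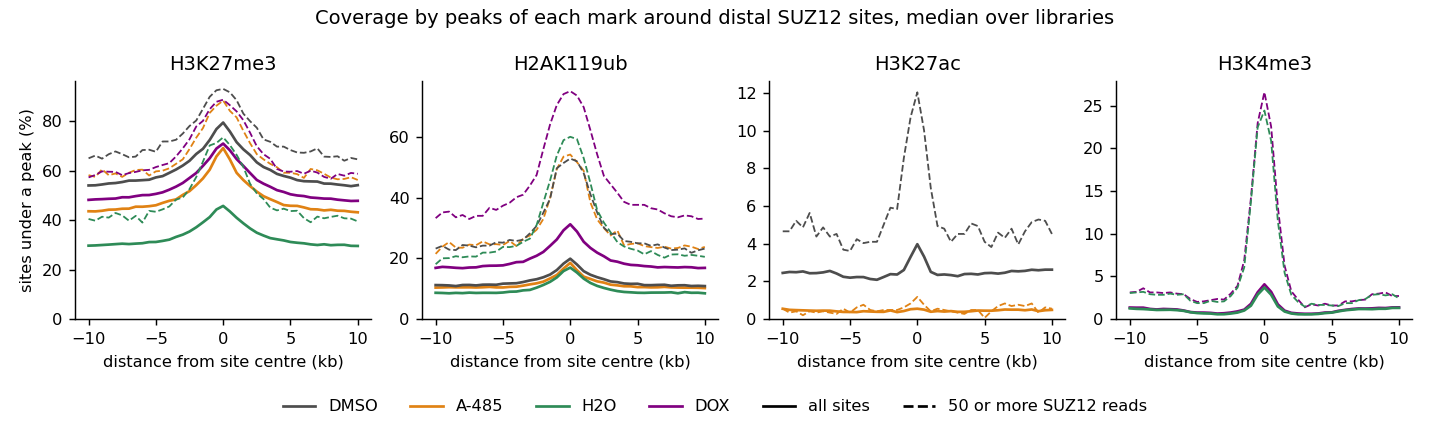
Percent of distal SUZ12 sites with a peak of each mark at a given distance (kb) from the site centre, as the median over the libraries of a treatment; solid lines are all 20813 sites and dashed lines the 719 sites with 50 or more SUZ12 reads. H3K27me3 stays high over the whole 20 kb window, whereas H3K4me3 peaks narrowly at the centre; each panel has its own vertical axis.

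Marking by H3K27me3, H2AK119ub and H3K4me3 rose with the number of SUZ12 reads in a site. From sites with 7 to 10 reads to those with 50 or more, the median share over H2O libraries went from 41.2 to 78.0% for H3K27me3, from 10.9 to 58.3% for H2AK119ub and from 1.88 to 17.8% for H3K4me3. Over DOX libraries it went from 66.8 to 91.7%, from 22.4 to 78.2% and from 2.15 to 20.4%. H3K27ac went from 5.76 to 13.9% in DMSO replicate 4 and from 0.653 to 0.695% in replicate 2, and the latter change rests on few sites. With A-485 it went from 0.435 to 0.278% in replicate 2 and from 0.979 to 0% in replicate 4. Sites with more reads were also wider (medians of 800 bp at 7 to 10 reads and 3400 bp at 50 or more), and the part of width was not tested.

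**Figure D3:**
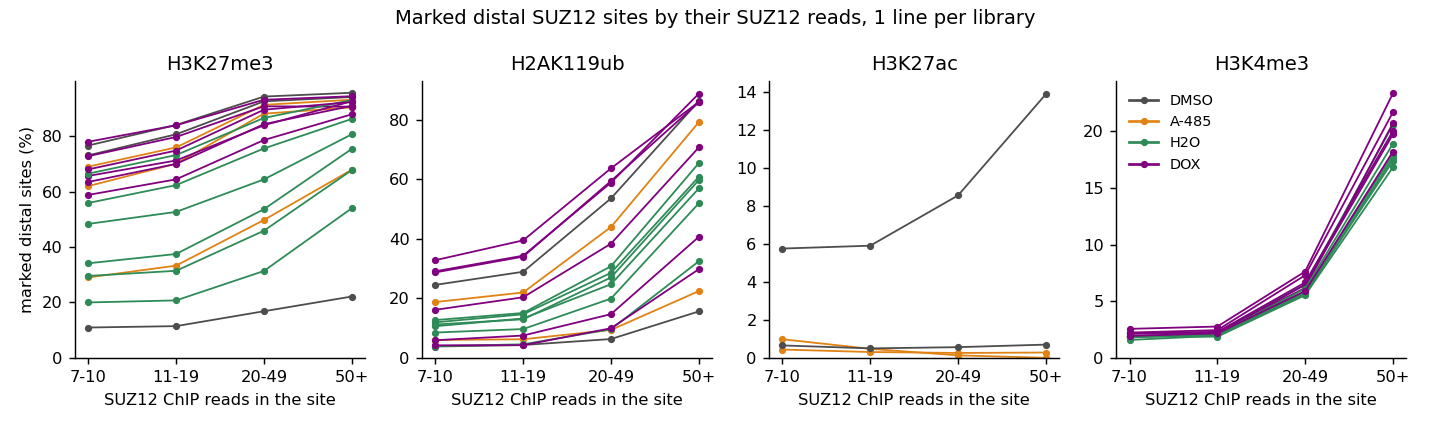
Percent of distal SUZ12 sites marked by each modification in bins of SUZ12 ChIP reads per site, with 1 line per library coloured by treatment. Every line for H3K27me3, H2AK119ub and H3K4me3 ends higher at 50 or more reads than it starts at 7 to 10; vertical axes differ between panels.

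By the marks of the DMSO libraries, distal sites fell into 4 classes, of which H3K27me3 without H3K27ac was by far the most common. A class used H3K27me3 in at least 2 of 3 libraries and H3K27ac in both. H3K27me3 only was found at 16645 sites (80.0%, against 70.8% of proximal sites), neither mark at 4100 (19.7% against 23.2%), H3K27ac only at 59 (0.283% against 5.13%) and both marks at 9 (0.0432% against 0.897%). Marking in at least 2 of 3 libraries rests on replicates 2 and 3 for most sites, since replicate 4 marked few. The H3K27ac classes are in turn limited by replicate 2, which marked 113 distal sites against 1387 in replicate 4. In replicate 4, 898 sites of the H3K27me3-only class and 421 of those with neither mark carried H3K27ac.

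The knockdown lines, which the classes did not use, showed the same division with H2O. H3K27me3 marked 54.6% of H3K27me3-only sites, 22.7% of sites with neither mark and 5.08% of H3K27ac-only sites in the median over 6 libraries. H3K4me3 marked 2.13, 6.44 and 78.0% of them. H2AK119ub marked 17.6% of H3K27me3-only and 11.5% of neither, and 56.8% of the 59 H3K27ac-only sites. The H3K27ac-only sites were CpG-rich at 59.3% and lay within 1000 bp of another annotated start at 62.7%, against 2.85 and 11.2% of H3K27me3-only sites.

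The strongest H3K27ac-only sites included some at other starts of protein-coding genes. The site with the highest SUZ12 fold among its strong members (chr7:70693901-70696200, 64 SUZ12 reads) covers an inner start of AUTS2, a neurodevelopmental gene, 435944 bp from the nearest canonical start, GALNT17. Its H3K27ac peaks had log2 folds of 3.29 and 1.43 in DMSO replicates 2 and 4, and its H3K4me3 peaks 3.54 to 4.87 over all 12 libraries. Sites in EPB41L1 (chr20:36091301-36093700, 34 reads) and PCGF5, a Polycomb repressive complex 1 subunit (chr10:91163001-91164400, 20 reads), also lay at other starts of their genes and carried H3K4me3 in 12 of 12 libraries. The site with the most reads, 76, lies in the noncoding PTCSC3 near MBIP (chr14:36215401-36219800), within the chromosome 14 stretch of high input.

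By the class rule both marks were found at 9 sites. Apart from the ANKRD30BL site, the strongest was at an inner start of FGF12, an intracellular fibroblast growth factor homologue (chr3:192407901-192410700, 57 reads), which H3K27me3 marked in 2 of 3 DMSO libraries and in 0 of 12 knockdown-line libraries. A site in GMDS, 13986 bp from FOXC1, a forkhead factor of mesoderm and eye (chr6:1623901-1625600, 36 reads), was marked by H3K27me3 in 2 of 3 DMSO, 6 of 6 H2O and 3 of 6 DOX libraries. All 9 were marked by H3K4me3 in every one of the 12 libraries.

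H3K4me3 and, by the medians over libraries, H2AK119ub were more frequent at CpG-rich sites. H3K4me3 marked 59.1 to 64.4% of the 728 CpG-rich sites in H2O libraries and 60.9 to 70.3% in DOX libraries, against 1.05 to 1.46% and 1.29 to 1.96% of the 20085 others. Of the 336 CpG-rich sites with no annotated start within 1000 bp, 47.0 to 53.6% and 49.4 to 58.6% were marked. H2AK119ub marked 45.7 to 68.1% of CpG-rich and 4.91 to 17.7% of other sites in H2O libraries, where the ranges did not overlap. They overlapped with DOX (42.4 to 73.4% and 4.86 to 43.9%), DMSO (18.1 to 72.8% and 4.50 to 33.4%) and A-485 (16.6 to 66.1% and 7.00 to 26.1%). H3K27me3 did not follow CpG content in this way, with 52.7% against 48.0% in the median over H2O libraries and 67.1% against 75.6% over DOX libraries.

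**Figure D4:**
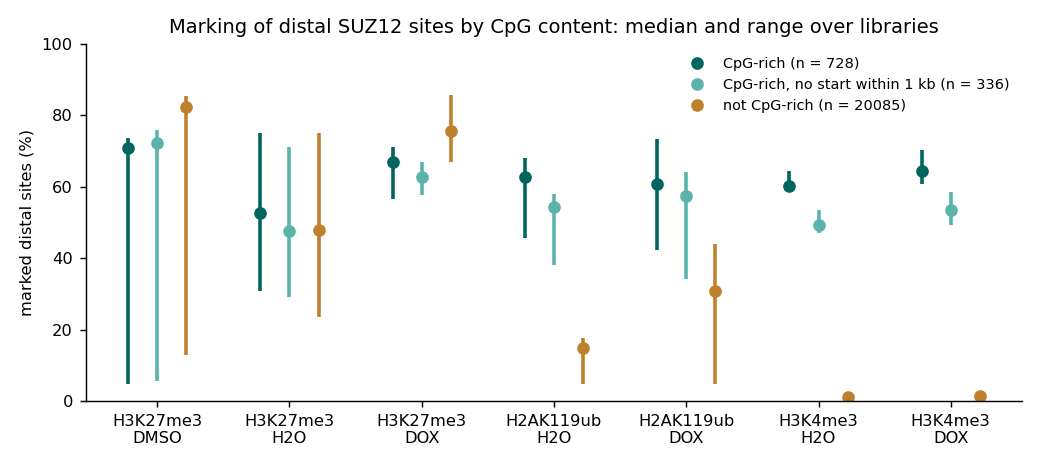
Percent of distal SUZ12 sites marked in 3 sets, 728 CpG-rich sites, the 336 of them with no annotated start within 1 kb, and 20085 others; points are medians over libraries and vertical lines run from the lowest to the highest library. For H3K4me3 the CpG-rich sets lie far above the others, whereas for H3K27me3 the lines overlap.

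Sites marked by H3K4me3 in all 12 libraries numbered 512. Of these, 74.6% were CpG-rich and 57.2% lay within 1000 bp of another annotated start, against 1.01 and 9.66% of the 19789 sites without H3K4me3 in any library. The repeated unit was present in 22 of the 512. In parental cells 47.5% of the 512 carried H3K27me3 without H3K27ac and 42.2% neither mark. H3K4me3 also fell with distance from canonical starts, from 8.27 to 9.50% of sites at 5 to 10 kb to 1.66 to 2.14% beyond 200 kb in H2O libraries, with 1.70 to 1.99% and 0.817 to 0.962% of tiles at the same distances.

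H2AK119ub was more frequent at sites with H3K27me3 than at sites without it. Of distal sites with H2AK119ub, 30.1 to 94.4% also carried H3K27me3 in the library of the same line, treatment and replicate number, the lowest value being that of DMSO replicate 4, where H3K27me3 was shallow, and 49.3% in shDPPA4 H2O replicate 3. Over all distal sites H3K27me3 marked 12.7 to 85.1% in these libraries, less than among sites with H2AK119ub in 16 of 16. Of sites with H3K27me3, 7.83 to 50.7% carried H2AK119ub, and of sites without it, 2.85 to 20.3%. The share of H2AK119ub sites with H3K27me3 was low where the H3K27me3 library held few reads in peaks, whose part was not tested. The share of H3K27me3 sites with H2AK119ub did not follow these reads. It was 7.83% in shDPPA4 DOX replicate 1 (7952247 reads) and 26.7% in shDPPA4 H2O replicate 3 (1085365 reads).

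A-485 was compared with DMSO to ask what p300/CBP inhibition does to the marks at Polycomb sites. H3K27ac at distal sites was low from the start and was lower with A-485 in both pairs, from 0.543 to 0.317% of sites in replicate 2 and from 6.66 to 0.480% in replicate 4. The replicate 4 lists are those whose inputs go against their labels, so the direction there rests on labels in doubt. H3K27me3 fell by 9.30 percentage points in replicate 2, fell by 6.86 in replicate 3 and was 24.1 points higher in replicate 4, whose DMSO library was shallow (mean 60.0% ± 40.9 with DMSO and 62.6% ± 22.5 with A-485, SD, n = 3). H2AK119ub fell by 7.26 points in replicate 3 and was 2.36 points higher in replicate 4. The direction differed between replicates for H3K27me3 and H2AK119ub, and in 25 of 25 pairs of the study, these included, the share moved with the number of reads in peaks, whose part was not tested. Shares and reads in peaks come from the same peak lists, so they are not independent.

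Read counts in merged regions were tested next, with edgeR's quasi-likelihood test, the replicate number as a block and Benjamini-Hochberg adjustment over all regions. Since TMM scaling sets the typical region to no change, a shift of all regions alike would go unnoticed. For H3K27me3, 4358 of 8795 tested regions held distal sites (11180 sites), and 0 were called, against 0.0% of all regions called in either direction. At an unadjusted p under 0.05 there were 72, and DESeq2 called 0. The median log2 fold change was 0.10 in regions with distal sites and -0.01 in all regions, and with called length as an offset -0.05 and -0.02. Leaving out A-485 or DMSO replicate 4 gave 10 called sites, 7 higher and 3 lower. They lay in 1 region called higher and 1 called lower, the only ones called among all 8795.

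The smallest p-values for H3K27me3 went to regions with fewer reads after A-485. In the region near EGLN3, an oxygen-sensing prolyl hydroxylase (chr14:34056001-34061900, 2 distal sites), normalized counts (TMM-scaled CPM over the tested regions) were 74.0, 34.1 and 107 with DMSO in replicates 2, 3 and 4 and 19.7, 13.3 and 36.1 with A-485. The groups overlapped only through DMSO replicate 3 and A-485 replicate 4, and the log2 fold change was -1.62 (SE 0.29), with an adjusted p of 0.882 by edgeR's quasi-likelihood test. Regions near MACIR and DPYSL4 had -1.64 and -1.61 with the same adjusted p.

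For H2AK119ub, 1160 of 4488 tested regions held distal sites (1981 sites), whereas 7633 merged regions did (9035 sites). Of the 1160, 0 were called against 0.0% of all regions. There were 40 at an unadjusted p under 0.05, and DESeq2 called 0. With all 4 libraries and no replicate block 0 sites were called, and the median log2 fold change in regions with distal sites was 0.13. Without the block and without DMSO replicate 3, which leaves 1 DMSO library, it was 0.34 against 0.03 in all regions. Most sites called in that fit were higher, as were most of all regions called. For H3K27ac, 1418 of 126788 merged regions held distal sites (1458 sites), but only 42 of the 8819 regions with a peak in every library did (54 sites). Regions without a peak after A-485 were thus never tested, and the test says nothing of them. Of the 42, 0 were called, 5 had an unadjusted p under 0.05 and DESeq2 called 0, against 0.0% of all regions. Their median log2 fold change was -0.34 against -0.01 in all regions, with 16 higher and 26 lower. Without the block and without DMSO replicate 4 the median was 0.37 (-0.24 without the block in all 4 libraries), and with called length as an offset it was 1.12 against 0.94 in all regions.

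In the knockdown lines DOX was compared with H2O to ask what loss of DPPA2 and DPPA4 does to the marks. H3K27me3 marked more distal sites with DOX in 5 of 6 pairs of line and replicate number, by 8.86 and 39.7 points in shDPPA2 (replicates 1 and 3), 17.2 and 41.9 in shDPPA2+4 and 61.3 in replicate 3 of shDPPA4, and fell by 8.30 in its replicate 1. The means were 49.1% ± 19.3 with H2O and 75.9% ± 6.48 with DOX (SD, n = 6 libraries), and the ranges overlapped. The H2O libraries of replicate 3 held 1085365 to 2227464 reads in peaks and the DOX libraries 5989134 to 10345651, and tiles moved the same way in 6 of 6 pairs.

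H2AK119ub marked more distal sites with DOX in 4 of 6 pairs. In shDPPA2 the share was 18.4 and 27.6 points higher in replicates 1 and 3. In shDPPA4 it fell by 10.2 points in replicate 1 and was 26.8 higher in replicate 3, and in shDPPA2+4 it fell by 8.66 and was 20.6 higher. The split thus ran along replicate numbers in 2 of 3 lines, and the DOX libraries of replicate 3 (39.6 to 44.4%) stood above those of replicate 1 (6.18 to 24.7%). H3K4me3 was higher in 6 of 6 pairs by 0.0961 to 0.692 points, with means of 3.29% ± 0.216 with H2O and 3.75% ± 0.357 with DOX (SD, n = 6). For H3K4me3, tiles were also higher in 6 of 6 pairs, by 0.0104 to 0.218 points, and proximal sites by 0.252 to 4.76. For H2AK119ub, tiles and proximal sites moved in the same direction as distal sites in every pair. These rises were thus not particular to distal sites.

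**Figure D5:**
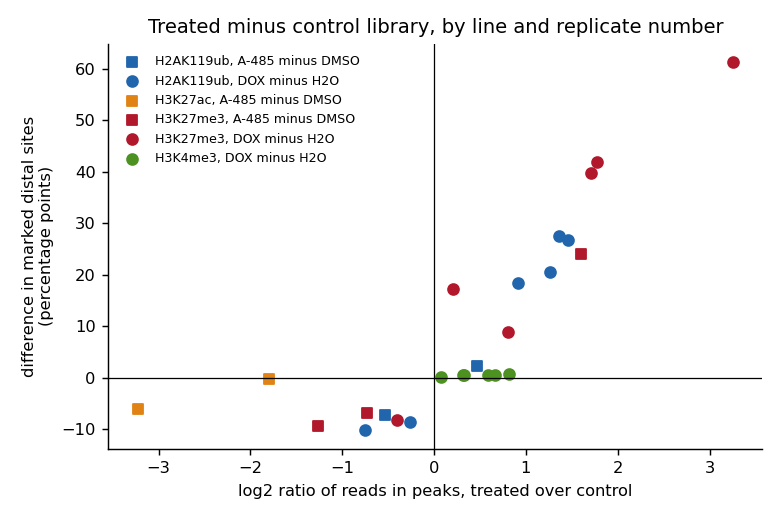
Difference in the percent of marked distal SUZ12 sites between treated and control library (percentage points) against the log2 ratio of their reads in peaks; each point is a pair of libraries of a line and replicate number, squares are A-485 minus DMSO and circles DOX minus H2O, coloured by mark. All 25 points lie in the quadrants where both differences have the same sign.

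In the test of regions, with the mean over 3 lines as the contrast, 5964 of 14796 H3K27me3 regions held distal sites (15389 sites) and 0 were called, against 0.0% of all regions. Merged regions with distal sites numbered 9213 (19180 sites), and the others lacked a peak in some library. An unadjusted p under 0.05 was found for 1881 of the 5964 regions and 3677 of the 14796. DESeq2 called 1314 sites higher and 673 lower, in 487 and 227 of the 5964 regions, against 813 and 634 of the 14796. The median log2 fold change was 0.09 in regions with distal sites and 0.03 in all, and with called length as an offset -0.84 and -0.87. Without shDPPA4 H2O replicate 1, which leaves 1 library in that group, the median without the offset was 0.14 and 0.06. That fit called regions in both directions, with and without distal sites. The smallest p-values went to regions near ADRA1B, an adrenergic receptor (chr5:159854001-159884700, log2 fold change 1.19), and BCL11B, a zinc finger factor of T cells and neurons (chr14:98845101-98867000, 1.44), each with an adjusted p of 0.0962 by edgeR.

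For H2AK119ub the change in summed counts of tested regions with distal sites lay above that of all tested regions. Merged regions with distal sites numbered 10261 (14171 sites), but only 1181 of them had a peak in every library and were tested (2920 sites). The test says nothing of the others. Among 6085 tested regions, these 1181 had a median log2 fold change of 0.31 against -0.03 in all regions, and 907 were higher and 274 lower. Summed counts follow the length under peaks, and with called length as an offset the median was 0.12 against 0.01 in all regions. None passed the test (0 called, 0.0% of all regions). An unadjusted p under 0.05 was found for 381 of the 1181 regions and 1297 of the 6085, and with the offset for 13 and 18. DESeq2 called 762 sites higher and 9 lower, in 181 and 6 of the 1181 regions, against 292 and 108 of the 6085. By pair, the median log2 ratio in regions with distal sites was 0.37, -0.06 and -0.10 in replicate 1 of shDPPA2, shDPPA4 and shDPPA2+4, and 0.74, 0.74 and 0.41 in replicate 3. Replicate 1 thus shared the direction in shDPPA2 alone. Leaving out shDPPA2 DOX, shDPPA4 H2O or shDPPA4 DOX replicate 1, which leaves 1 library in that group, gave called sites, most of them higher. Regions without distal sites were called too. The median log2 fold changes in regions with distal sites were then 0.34, 0.43 and 0.41, against -0.06, -0.03 and -0.01 in all regions.

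Regions near EGFLAM and LIFR, VSTM2B and GOLT1A had the smallest p-values for H2AK119ub. In the first (chr5:38394701-38417300, 6 distal sites) normalized counts with H2O were 68.5, 48.4 and 113 in replicate 1 of shDPPA2, shDPPA4 and shDPPA2+4 and 127, 154 and 225 in replicate 3. With DOX they were 253, 178 and 111 in replicate 1 and 492, 541 and 446 in replicate 3. DOX was higher in 5 of 6 pairs, with shDPPA2+4 replicate 1 about level, and the log2 fold change was 1.43 (SE 0.18), with an adjusted p of 0.0726 by edgeR. VSTM2B had 1.35 and GOLT1A 2.35, both with an adjusted p of 0.0930.

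For H3K4me3, sites were called by the test as fitted here. Merged regions with distal sites numbered 985 (1039 sites), and 721 of the 21342 tested regions held distal sites (767 sites). Of these, 3 were called higher, against 0.197% of all regions, and 0 lower, against 0.328%, and 179 of the 721 regions had an unadjusted p under 0.05, against 5753 of the 21342. DESeq2 called 0, the fit without the replicate block called 0, and the count was 0 to 9 when a library was left out. Without shDPPA2+4 DOX replicate 2, 0 sites were called higher and 2 lower, so the direction turned. The median log2 fold change was 0.09 against 0.00 in all regions, with 549 higher and 172 lower. With called length as an offset it was -0.04 against -0.08 in all regions, with 274 higher and 447 lower. The sign of the median thus depends on this choice, whereas it lay above the median of all regions in both fits.

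The 3 called regions were all weak for H3K4me3. Near GLYATL1B, an acyltransferase gene (chr11:59057701-59058900), normalized counts in replicates 1 and 2 were 2.37 and 1.70 with H2O and 4.72 and 4.81 with DOX in shDPPA2, 3.12 and 2.98 against 3.57 and 3.72 in shDPPA4, and 2.58 and 2.03 against 3.23 and 3.98 in shDPPA2+4. All 6 DOX values lay above all 6 H2O values, and the log2 fold change was 0.73 (SE 0.16, adjusted p 0.0163 by edgeR). Near OCM2, a parvalbumin family gene (chr7:97958201-97960100), H2O values of 4.11 to 5.67 lay below DOX values of 5.80 to 8.30, and the log2 fold change by edgeR was 0.52 (SE 0.13) at an adjusted p of 0.0218. Near BCL11A, a zinc finger repressor (chr2:60568901-60570800), H2O values of 1.55 to 3.17 overlapped DOX values of 2.31 to 4.24, with 0.59 (SE 0.17, adjusted p 0.0471 by edgeR). The raw counts behind them were 13 to 139 reads a library.

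The lines were not told apart at distal sites. Of the regions with distal sites, 0 differed between lines in the effect of DOX by edgeR's quasi-likelihood test, for H3K27me3, H2AK119ub or H3K4me3, and 71, 53 and 9 had an unadjusted p under 0.05. With 2 libraries in each group, a missing call does not show that the lines responded alike.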

How the data were processed

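ChIP-Rx-seq peak lists of 51 libraries among 59 samples were used; the 8 input samples were used only as the input counts in these lists. The submitters' processing notes name Trim Galore 0.6.6, BWA 0.7.13, SAMtools 1.9, Picard 2.6.0 and deepTools 3.5.0. The authors called domains per library with EPIC2, against an input, on hg38. The SUZ12 list, from double cross-linked chromatin, has these same columns, whereas the study's methods give MACS2 for SUZ12. The deposited read counts (ChIP and input, per domain) are raw. Also deposited are the log2 fold of ChIP over input, a p-value and an FDR, which here filtered peaks or described single ones, and a score that was not used. Blacklisted regions, which the study left out, were not removed.

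Sites were classed by distance to 19111 canonical starts and by overlap with filtered peaks (log2 fold above 1, FDR under 0.05). Values of a site are its own peak's counts, and a mark's fold at a site is the overlap-weighted mean of the peaks over it. The background was 2139693 distal autosomal tiles of 1200 bp. Shares of sites got no test, because the sites and gene lists were chosen with earlier results of these data known. For tests, the filtered peaks of a target were merged across its libraries into regions, in which each library's ChIP counts were added up. Where every library had a peak and the mean was at least 10 reads, edgeR 4.0.16 (R 4.3.3; TMM, quasi-likelihood) was fitted. Calls needed an adjusted p under 0.05 with a log2 fold change of at least 0.5 in size. The replicate number was a block, after the study's design. Deviations of libraries with 1 number from their group means correlated at 0.306 to 0.543, except for H3K27me3 in shDPPA2 (0.154) and shDPPA4 (-0.0886). DESeq2 1.42.0, RLE scaling, no block, no minimum count, called length as an offset, all deposited peaks and leaving out each library were the alternatives for regions, and for shares an overlap of 1 bp, all deposited peaks, stronger SUZ12 peaks and a distance of 10000 bp. Scripts ran in Python 3.11.15, and the edgeR test was checked on simulated data. Named sites were those with the most SUZ12 reads in each class and gene list, the largest clusters, the sites nearest the distance limit, and regions called or, with none called, of smallest p; 1 site so chosen is not reported here. Printed sequences are the central 300 bp of the site with the highest SUZ12 log2 fold in its class among those with at least 50 reads and off chromosome 8, and that of the H3K27ac-only class is not reported here; those of the sites near IRX4 and FOXA1, and the repeat core searched, were chosen after their values were seen. Intervals for counting error are not given for shares, since sites of 1 library are not replicates; the number of reads limits their precision.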

Additional observations from a re-analysis of the deposited data

How the results depend on the processing

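Of 224 values computed under alternatives, 182 stayed within set limits of the main value and 42 did not. The limits were 1.5 times the main count for called sites and the SD over libraries for shares. For class percentages the limit was the exact binomial interval over sites, which treats sites of 1 library as independent and is narrower than a spread between replicates could be. With each library left out in turn, called sites ranged from 0 to 10 for H3K27me3 and from 0 to 123 for H2AK119ub after A-485, and from 0 to 4703 for H3K27me3, from 0 to 258 for H2AK119ub and from 0 to 9 for H3K4me3 with DOX. In the latter, 0 sites were called without replicate 2 of shDPPA4 H2O or of shDPPA2+4 H2O, 1 without replicate 2 of shDPPA2 H2O or DOX, 6 without shDPPA4 DOX replicate 2, 9 without shDPPA2+4 DOX replicate 1, and without shDPPA2+4 DOX replicate 2 the called sites were 2, both lower; the causes were not tested. Lone libraries left by this are assumed to vary like the others, and for H2AK119ub and H3K27ac with A-485 the block was dropped there. These are counts of sites, several of which can lie in a single region. Except for H3K27me3 after A-485, the fits with the most calls also called regions without distal sites. With no replicate block 0 sites were called for H3K4me3, and the block changed no other call. DESeq2 called 1987 (H3K27me3), 771 (H2AK119ub) and 0 (H3K4me3) sites with DOX. Called length as an offset gave 30 sites for H2AK119ub with A-485, all higher, in 21 of 1160 regions with distal sites, against 55 of all 4488. For H3K27ac with A-485 it gave 50, all higher, in 38 of 42 regions with distal sites, against 7837 of all 8819. Most regions of that mark were thus called alike. The offset gave 0 for H3K4me3 with DOX. All deposited peaks gave 2 for H3K27ac with A-485, where 4 of all 9399 regions were called higher. They gave 190 for H2AK119ub with DOX, all higher, in 41 of 1613 regions with distal sites, against 50 of all 8244. On simulated counts with known changes the edgeR test recovered few or none in the 3 A-485 comparisons, a minority for H3K27me3 with DOX and most for H3K4me3, so that 0 called sites after A-485 says little about whether the sites changed. The recovery for H2AK119ub with DOX is not reported here. The simulated counts held no replicate effect, so recovery in the real data may differ.

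With 1 bp of overlap, mean shares were 83.1% (H3K27me3, DOX), 32.3% and 24.7% (H2AK119ub, A-485 and H2O), 1.49% (H3K27ac, A-485), 4.56% and 4.94% (H3K4me3, H2O and DOX), and classes were 85.4% H3K27me3 only, 13.99% neither, 0.452% H3K27ac only and 0.202% both, since a lower overlap counts more sites. At sites with at least 20 SUZ12 reads they were 87.5% (H3K27me3, DOX), 28.2% and 44.8% (H2AK119ub, H2O and DOX), 0.183% (H3K27ac, A-485) and 7.79% and 8.84% (H3K4me3, H2O and DOX). All deposited peaks gave 1.09% (H3K27ac, A-485), sites over 10 kb from a start 3.02% (H3K4me3, H2O), and SUZ12 log2 folds above 1 gave 82.3% H3K27me3 only and 17.4% neither. Leaving out sites over 50 input reads per kb, chosen after seeing the data, kept every share and class within the limits given above.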
